A study of Mus musculus with 15 samples.

Results

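The levels of 10 antioxidant genes were followed in the hearts of mice with chronic kidney disease (CKD): Nqo1, Hmox1, Gclc, Gclm, Txnrd1, Srxn1, Sod1, Sod2, Cat and Gpx1. They were taken by name as 10 of the 17447 genes in the count table, and all 10 passed the filter on low counts. The libraries came from hearts of male C57BL/6J mice, 3 mice in each of 5 groups, aged 6 to 8 weeks at the start. The WTSHAM group were wild-type mice after sham surgery, and the labels used here do not say whether they received a vector. The other 4 groups all had CKD made by subtotal nephrectomy and an injection into the tail vein in week 2 after it. WTCKD (wild type) and KOCKD (Rnls knockout, rnls-/-) received the control vector, and WTCKD + RNLS and KOCKD + RNLS received AAV9-cTnT-RNLS. This virus carries renalase under the cardiac troponin T promoter, so that overexpression was aimed at cardiomyocytes, while the knockout was present in every tissue. Hearts were taken 18 weeks after surgery. The sequenced groups hold no knockout mice with sham surgery, so the genotype was compared within CKD alone, and the Rnls gene itself was not analysed here.

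NRF2, encoded by Nfe2l2, is the transcription factor that raises antioxidant enzymes when cells meet oxidants or electrophiles. At rest KEAP1 holds it in the cytoplasm for degradation, and BACH1 occupies many of the same sites, called antioxidant response elements (AREs). Nqo1, Hmox1, Gclc, Gclm, Txnrd1 and Srxn1 are classical NRF2 targets, whereas Sod1, Sod2, Cat and Gpx1 encode the abundant enzymes that remove superoxide and hydrogen peroxide in the heart, and depend on NRF2 less uniformly.

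To show where such elements lie, RefSeq promoter windows of 300 bases (250 before and 50 after the start of a transcript, build GRCm38.p6) were searched on both strands for TGACNNNGC, the ARE core, and for TGAGNNNGC, which was added after the windows had been looked at. The 2 motifs cannot match at the same position on the same strand. Windows were given for 8 of the 10 genes, all but Hmox1 and Gclc. TGACNNNGC matched in 4 of these 8 genes, against 17% of the 10373 tested genes that had a window and 12.4% of all 32851 windows. TGAGNNNGC matched in 1 of the 8, against 23.1% of the tested genes and 17.6% of all windows. The 4 windows with a match are printed 5′ to 3′ on the strand of the gene, with the matched bases in capitals, to show where the matched letters stand in each: Gclm (chr3:122245307-122245606, plus strand), Txnrd1 (1 of its 3 windows, chr10:82858956-82859255, plus strand), Srxn1 (chr2:152105274-152105573, plus strand) and Sod1 (chr16:90220512-90220811, plus strand).
Gclm: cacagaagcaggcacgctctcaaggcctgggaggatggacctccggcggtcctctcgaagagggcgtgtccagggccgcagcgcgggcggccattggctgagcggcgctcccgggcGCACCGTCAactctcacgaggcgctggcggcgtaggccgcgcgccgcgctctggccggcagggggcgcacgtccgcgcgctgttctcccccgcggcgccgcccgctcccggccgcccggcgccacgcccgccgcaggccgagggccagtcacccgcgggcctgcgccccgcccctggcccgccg
Txnrd1: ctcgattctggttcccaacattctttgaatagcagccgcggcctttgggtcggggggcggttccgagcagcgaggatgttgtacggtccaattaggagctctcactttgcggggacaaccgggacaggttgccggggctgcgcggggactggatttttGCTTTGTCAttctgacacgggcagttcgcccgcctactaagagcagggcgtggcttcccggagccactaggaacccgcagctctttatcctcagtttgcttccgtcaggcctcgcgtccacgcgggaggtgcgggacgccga
Srxn1: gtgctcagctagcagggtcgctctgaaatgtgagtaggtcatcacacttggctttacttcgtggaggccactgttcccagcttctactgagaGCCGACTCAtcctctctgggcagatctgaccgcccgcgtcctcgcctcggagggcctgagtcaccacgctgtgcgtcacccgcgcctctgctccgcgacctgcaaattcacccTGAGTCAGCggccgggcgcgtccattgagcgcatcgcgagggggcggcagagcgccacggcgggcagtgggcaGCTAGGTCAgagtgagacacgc
Sod1: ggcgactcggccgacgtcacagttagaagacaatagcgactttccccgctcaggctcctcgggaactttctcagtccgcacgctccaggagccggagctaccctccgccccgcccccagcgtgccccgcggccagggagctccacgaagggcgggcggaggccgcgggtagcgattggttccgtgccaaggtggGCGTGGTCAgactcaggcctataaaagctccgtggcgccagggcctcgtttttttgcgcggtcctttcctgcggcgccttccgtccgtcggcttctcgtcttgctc
In Gclm the match GCACCGTCA, which reads as the motif on the opposite strand, begins 134 bases before the start. In Txnrd1 GCTTTGTCA begins 92 bases before it, and in Sod1 GCGTGGTCA begins 56 bases before it. Srxn1 held 3 matches, the TGAGNNNGC matches GCCGACTCA and TGAGTCAGC at 158 and 45 bases before the start, and GCTAGGTCA at 28 bases after it. No match was found in the windows of Nqo1, Sod2, Cat and Gpx1. That says only that these letters are absent from these windows.

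The libraries held 10480788 to 13424078 counts assigned to genes, with a median of 12011453, and all 15 were used. The level of a gene in a heart is written in CPM, which is its count relative to the library size after scaling by the trimmed mean of M-values (TMM), while levels are compared between genes in the FPKM deposited by the authors. The 10 markers of cardiomyocytes, which include Myh6, Tnnt2 and Ttn, summed to between 110700 and 141500 CPM. Their sum was 111000 to 127400 CPM in WTCKD and 130200 to 141500 CPM in WTCKD + RNLS, and 112100 to 119200 CPM in KOCKD and 124800 to 127800 CPM in KOCKD + RNLS. Gene by gene, 9 of the 10 were higher and 1 lower with RNLS in wild-type mice, with 1 called higher (adjusted p under 0.05). In knockout mice 3 were higher, all 3 called, and 7 were lower, with 0 called. The median log2 fold change there was -0.055. Of all genes, 4.47% were called in wild-type and 16.1% in knockout mice. Over the same comparisons the 12 macrophage markers were at 500 to 682 against 457 to 525 CPM in wild-type mice, and at 439 to 534 against 353 to 455 CPM in knockout mice. The 10 endothelial markers were at 1956 to 2270 against 1440 to 1613 CPM in wild-type mice, all 10 lower and 5 called lower. In knockout mice they were at 1925 to 2268 against 1656 to 1719 CPM, 8 lower and 2 higher, with 3 called lower. The 10 fibroblast markers were at 2493 to 3964 against 1883 to 2708 CPM in wild-type mice, all 10 lower and 4 called lower. In knockout mice they were at 2174 to 2968 against 2256 to 2532 CPM, 6 lower and 4 higher, with 3 called lower. Of all 13021 genes tested, 297 were called lower in wild-type and 917 in knockout mice. The 8 atrial markers were at 108 to 2594 against 151 to 542 CPM in wild-type mice. In knockout mice they were at 144 to 2793 against 158 to 317 CPM. With RNLS all 6 tested were lower in both genotypes, with 0 called in wild-type and 3 in knockout mice. The 9 erythrocyte markers summed to 68.95 to 631 CPM in WTSHAM, 38.6 to 107 in WTCKD and 219 to 532 in WTCKD + RNLS. In knockout mice they were at 51.4 to 378.5 against 74.2 to 295 CPM. All 7 tested were lower with CKD and higher with RNLS in wild-type mice, with 0 and 1 called. The 17 circadian clock genes summed to 631 to 714 CPM in WTCKD and 1019 to 1273 CPM in WTCKD + RNLS, with 12 of 17 called at an adjusted p under 0.05 beside 4.47% of all genes. They summed to 642 to 1074 CPM in KOCKD and 1101 to 1323 CPM in KOCKD + RNLS, with 10 of 17 called beside 16.1% of all genes. In bulk tissue fewer cells of a type and less RNA per cell cannot be told apart, and the part of these shifts in the results that follow was not tested.

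The 10 genes spanned a wide range of abundance in the heart. Sod1, the cytosolic copper and zinc superoxide dismutase, had the highest mean level at 390 FPKM, rank 164 of 17447 genes. It was followed by Sod2, the manganese superoxide dismutase of mitochondria, at 195 FPKM, by Cat, the catalase that breaks down hydrogen peroxide in peroxisomes, at 123 FPKM, and by Gpx1, the main cytosolic glutathione peroxidase, at 86.1 FPKM. The classical NRF2 targets were lower. Nqo1, the NADPH-quinone oxidoreductase, was at 37.3 FPKM, Txnrd1, the cytosolic thioredoxin reductase, at 17.8, and Gclm, the modifier subunit of glutamate-cysteine ligase, at 10.5 FPKM. Srxn1, the sulfiredoxin that restores over-oxidised peroxiredoxins, was at 8.7 FPKM, Hmox1, the inducible haem oxygenase, at 7.58 and Gclc, the catalytic subunit of glutamate-cysteine ligase, at 5.33 FPKM, rank 6536. Within groups the coefficient of variation was lowest for Txnrd1 (7.23%) and highest for Gclm (21.2%) and Hmox1 (20.8%). The highest group mean exceeded the lowest by between 1.13-fold (Txnrd1) and 1.27-fold (Gclc and Gclm), so the groups were ordered within a narrow range for every gene.

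**Figure D1:**
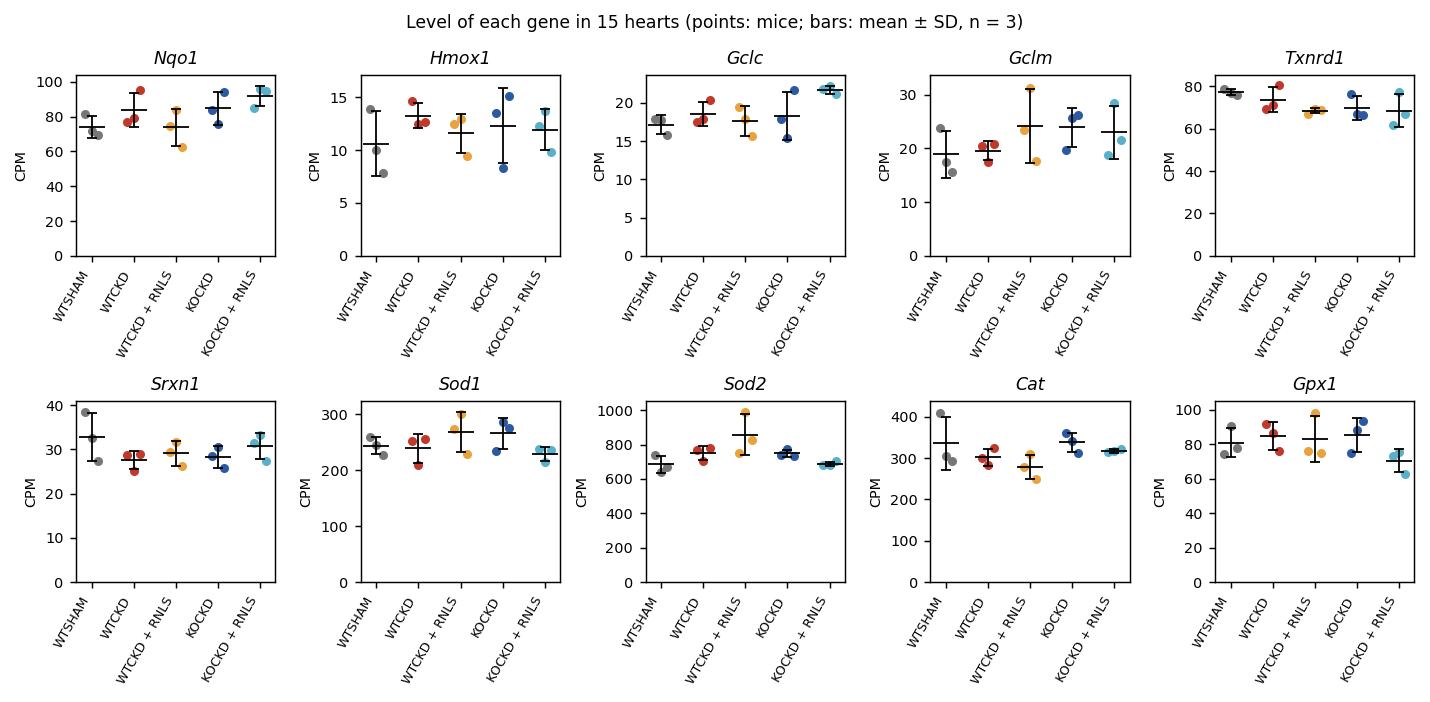
Level of each of the 10 genes in CPM (vertical axis, from 0) in the 5 groups (horizontal axis), 1 point per mouse with the mean and SD of 3 mice. Group means lie within 1.27-fold of one another for every gene, and Sod2 in KOCKD + RNLS (682 to 703 CPM) lies below all 3 KOCKD hearts (736 to 774 CPM). Between these 2 groups 40.6% of all genes did not overlap.

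None of the 10 genes was called in any pairwise comparison after adjustment over the 13021 genes tested (edgeR quasi-likelihood test, Benjamini-Hochberg). A gene was called at an adjusted p under 0.05. The question of the first comparison was what CKD changed in wild-type hearts, and 2.3% of all genes were called in WTCKD against WTSHAM. The log2 fold changes of the 10 genes lay between -0.25 (Srxn1) and 0.33 (Hmox1), with a median of 0.06 beside -0.005 for all genes, and the lowest adjusted p was 0.312. In WTCKD + RNLS against WTCKD, where 4.47% of all genes were called, they lay between -0.20 (Hmox1) and 0.29 (Gclm), with a median of -0.05 beside 0.01 for all genes and a lowest adjusted p of 0.252. In KOCKD + RNLS against KOCKD, where 16.1% of all genes were called (5.41% with gene length offsets and 6.53% without replicate 2 of KOCKD), they lay between -0.28 (Gpx1) and 0.24 (Gclc), with a median of -0.05 beside -0.009 and a lowest adjusted p of 0.135. KOCKD against WTCKD gave 0% of all genes called, with the 10 genes between -0.10 (Hmox1) and 0.29 (Gclm) and a lowest adjusted p of 0.605. The difference of the RNLS effect between genotypes, which is the log2 fold change in knockout mice minus that in wild-type mice, also gave 0% of all genes and none of the 10, with a lowest adjusted p of 0.223. These comparisons share the WTCKD and KOCKD hearts as controls. At an unadjusted p under 0.05, edgeR counted 0, 0, 1, 0 and 2 of the 10 genes in these 5 comparisons, beside 17.6%, 20.2%, 31.6%, 10.1% and 17.6% of all genes. DESeq2 called none of the 10 at an adjusted p in them, with no adjusted p for Hmox1, Gclc and Gclm in the last.

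The rule of the study, an unadjusted p under 0.05 with a log2 fold change beyond 0.322 in either direction, gave no call among the 10 genes in the 4 comparisons of 2 groups. The shares of all genes that met it were 11.3% in WTCKD against WTSHAM, 14.4% in WTCKD + RNLS against WTCKD, 22.3% in KOCKD + RNLS against KOCKD and 5.62% in KOCKD against WTCKD. It gave 1 call, Sod1, in the difference of the RNLS effect, where 15.2% of all genes met it. In the test of any difference among the 5 groups none of the 10 was called at an adjusted p, against 22.2% of all genes, and 1 of 10 (Sod2) had an unadjusted p under 0.05, against 39.7% of all genes. Read against these backgrounds, the 10 genes were called no more often than genes at large. None of the 50 confidence intervals, for 10 genes in 5 comparisons, reached a 2-fold change in either direction. The widest ran to -0.97 for Gclm and to 0.82 for Hmox1 on the log2 scale, both in the difference of the RNLS effect.

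**Figure D2:**
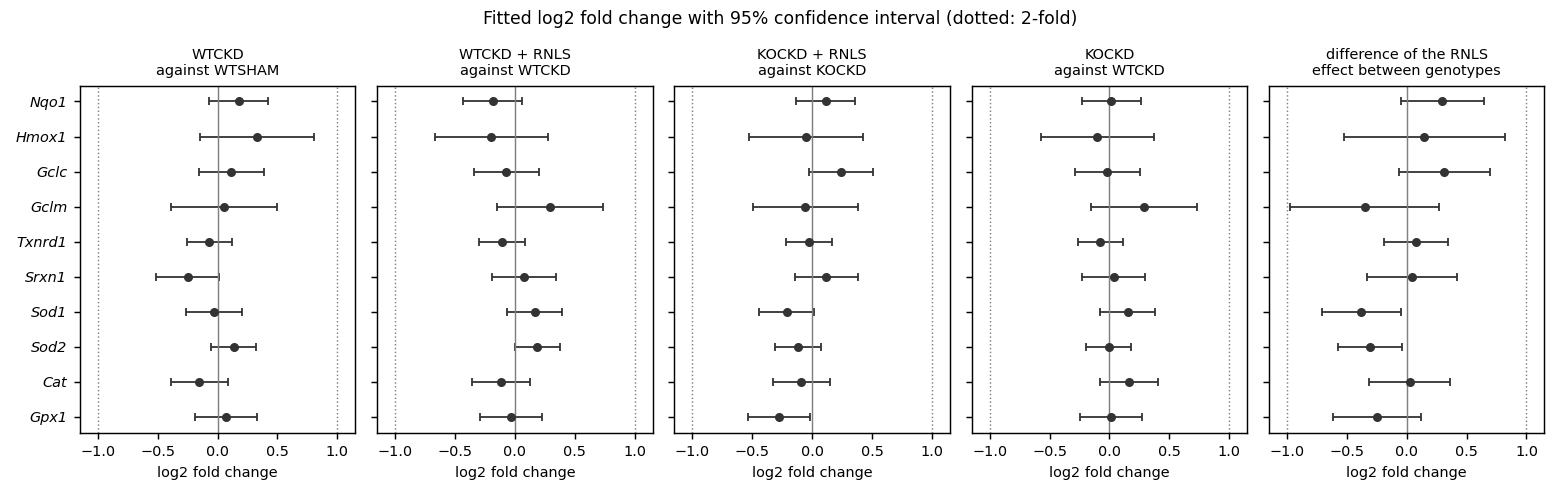
Fitted log2 fold change (horizontal axis) of each of the 10 genes (rows) in 5 comparisons (panels), with 95% confidence intervals, a line at 0 and dotted lines at 2-fold in each direction. No interval reaches a dotted line, and those of Gpx1 in KOCKD + RNLS against KOCKD and of Sod1 and Sod2 in the difference of the RNLS effect leave out 0 before adjustment.

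Nqo1, which reduces quinones with NADPH, stood at 81.4, 71.6 and 69.7 CPM in the 3 WTSHAM hearts and at 76.9, 79.2 and 95.3 CPM in WTCKD. In WTCKD + RNLS it was at 74.8, 83.9 and 62.8 CPM. The knockout hearts held 84.0, 75.8 and 94.3 CPM in KOCKD and 85.1, 95.6 and 94.4 CPM in KOCKD + RNLS. The groups overlapped in each comparison, and the log2 fold change was -0.18 ± 0.12 (SE, n = 3 per group) with RNLS in wild-type mice and 0.11 ± 0.12 in knockout mice (edgeR adjusted p = 0.41 and 0.534). The difference between these changes was 0.30, with a 95% interval from -0.05 to 0.65 and an adjusted p of 0.355 by edgeR.

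Hmox1, which degrades haem to biliverdin, carbon monoxide and iron, was sparse, with 89 to 188 counts per library. Its 3 values were 13.9, 10 and 7.9 CPM in WTSHAM, 14.6, 12.5 and 12.7 CPM in WTCKD and 12.4, 12.9 and 9.5 CPM in WTCKD + RNLS. In the knockout groups they were 13.6, 8.3 and 15.1 CPM in KOCKD and 12.3, 13.7 and 9.8 CPM in KOCKD + RNLS. The spread within WTSHAM and KOCKD covered the means of all the other groups, and the fitted change with CKD of 0.33 had an interval from -0.15 to 0.80 (edgeR adjusted p = 0.491).

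Gclc and Gclm encode the catalytic and the modifier subunit of the enzyme that limits the rate of glutathione synthesis. Gclc was at 17.9, 17.8 and 15.7 CPM in WTSHAM, 17.5, 17.9 and 20.3 CPM in WTCKD and 19.5, 17.9 and 15.6 CPM in WTCKD + RNLS. KOCKD hearts held 17.8, 15.5 and 21.7 CPM and KOCKD + RNLS hearts 21.9, 22.2 and 21.2 CPM. Only 1 KOCKD heart reached the KOCKD + RNLS range, which was the tightest of the 5 groups, and the change in knockout mice was 0.24 ± 0.13 on the log2 scale (SE, n = 3 per group, edgeR adjusted p = 0.199). Gclm was at 23.8, 17.4 and 15.5 CPM in WTSHAM, 20.5, 17.5 and 20.8 CPM in WTCKD and 23.4, 31.3 and 17.6 CPM in WTCKD + RNLS. It was at 19.7, 25.7 and 26.3 CPM in KOCKD and 18.8, 28.4 and 21.6 CPM in KOCKD + RNLS. Its change of 0.29 with RNLS in wild-type mice (edgeR adjusted p = 0.475) leaned on replicate 2 of WTCKD + RNLS, and leaving single hearts out moved it between 0.05 and 0.48. Exons of Gclm share 296 bases with a lincRNA, Gm17494, on the opposite strand, and the strand setting of the counting is not given in the sources used here.

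Nqo1 and Gclc had the highest correlation of the 10 genes over all hearts. Over the 15 hearts their log2 CPM had a Pearson r of 0.826 and a Spearman rho of 0.821, and by Pearson r each was the gene most like the other among 11726 genes compared. By rho Whamm (0.85) was more like Gclc. The r was 0.776 within groups, 0.825 without the 2 hearts farthest from the median of Gclc, and 0.788 without the KOCKD + RNLS group. The next genes in likeness were Tnfaip8 for Nqo1 (r = 0.823) and Whamm for Gclc (r = 0.811). This is a description of 15 libraries that share the scaling and the groups. Over the 45 pairs of the 10 genes r ran from -0.285 (Gclc and Gpx1) to 0.826, followed by 0.633 for Srxn1 and Cat, whose r within groups was 0.791, above that of Nqo1 and Gclc. The 10 genes did not move as 1 block.

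**Figure D3:**
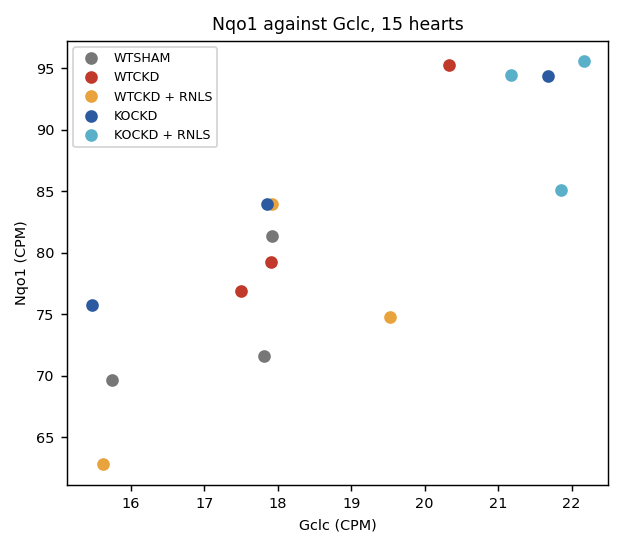
Nqo1 (vertical axis, CPM) against Gclc (horizontal axis, CPM) in the 15 hearts, coloured by group, with axes that do not start at 0. High Nqo1 goes with high Gclc within groups too, and the 3 KOCKD + RNLS hearts (Gclc 21.2 to 22.2 CPM) lie at the upper right with 1 KOCKD heart at 21.7 CPM.

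The genes most like the others, leaving Cat aside, came from other pathways. Sod2 was most like Dlat, a subunit of the pyruvate dehydrogenase complex (r = 0.973), and Ak1 (r = 0.949), and Sod1 was most like Etfb, a subunit of the mitochondrial electron transfer flavoprotein (r = 0.928), and Nme2 (r = 0.906). Gclm was most like Lactb (r = 0.928) and Pex6 (r = 0.91). For Hmox1 they were Tfcp2 (r = 0.843, rho = 0.629) and Scamp4 (r = 0.744), the loosest of those named. Txnrd1 had Bcar3 (r = 0.838) and Kpna4 (r = 0.818), Srxn1 had Usp16 (r = 0.831) and Crybg1 (r = 0.81), and Gpx1 had Bbip1 (r = 0.859) and Tusc1 (r = 0.855).

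Txnrd1 and Srxn1 keep the thioredoxin and peroxiredoxin cycle reduced. Txnrd1 was at 78.7, 77.1 and 76.1 CPM in WTSHAM, 69.2, 71.3 and 80.5 CPM in WTCKD and 67.1, 69.4 and 68.7 CPM in WTCKD + RNLS. It was at 76.4, 66.7 and 66.5 CPM in KOCKD and 61.5, 77.2 and 66.9 CPM in KOCKD + RNLS. The sham hearts lay toward the upper end of a narrow range, and its changes ran only from -0.11 to -0.03 over the 4 comparisons of 2 groups. Srxn1 was at 38.4, 32.6 and 27.4 CPM in WTSHAM, 28.7, 25.2 and 28.8 CPM in WTCKD and 29.4, 31.8 and 26.2 CPM in WTCKD + RNLS. In the knockout groups it was at 28.5, 30.6 and 25.8 CPM (KOCKD) and 31.4, 33.2 and 27.4 CPM (KOCKD + RNLS). A single sham heart stood above all the others, and its change with CKD of -0.25 had an interval from -0.51 to 0.01 and an adjusted p of 0.312 by edgeR.

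Sod2, which turns superoxide into hydrogen peroxide in the mitochondrial matrix, came nearest to a call across the 5 groups. It was at 742, 643 and 669.8 CPM in WTSHAM, 768, 706 and 781 CPM in WTCKD and 753, 987 and 829 CPM in WTCKD + RNLS. It was at 737, 774 and 736 CPM in KOCKD and 682, 683 and 703 CPM in KOCKD + RNLS. Its highest group mean was in treated wild-type hearts, where replicate 2 stood highest of all 15. Treated knockout hearts lay below all untreated knockout hearts, and 40.6% of all genes did not overlap between those groups. The log2 fold change with RNLS was 0.19 ± 0.09 in wild-type mice and -0.12 ± 0.09 in knockout mice (SE, n = 3 per group, edgeR adjusted p = 0.252 and 0.384). The difference between them was -0.31, with an interval from -0.58 to -0.04 and an adjusted p of 0.227. The test of any difference among groups gave an adjusted p of 0.0597 by edgeR and 0.0136 by DESeq2. Without replicate 1 of WTSHAM or replicate 1 of WTCKD + RNLS the edgeR value was 0.035 or 0.0263. In that test DESeq2 called 30.2% of all genes, and edgeR called 25.8% and 20% in these 2 fits.

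Sod1 held 259, 245 and 227 CPM in WTSHAM, 252, 208 and 255 CPM in WTCKD and 274, 299.9 and 229 CPM in WTCKD + RNLS. It held 235, 286 and 275 CPM in KOCKD and 237, 215 and 236 CPM in KOCKD + RNLS. The groups overlapped in each comparison. The change with RNLS was 0.17 in wild-type and -0.21 in knockout mice, and the difference of -0.38 had an interval from -0.70 to -0.05, an unadjusted p of 0.0259 and an adjusted p of 0.223 by edgeR.

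Gpx1, which uses glutathione to reduce hydrogen peroxide, was at 74.5, 90.4 and 77.9 CPM in WTSHAM, 92.0, 86.6 and 75.9 CPM in WTCKD and 76.1, 98.5 and 74.8 CPM in WTCKD + RNLS. It was at 74.8, 88.1 and 93.5 CPM in KOCKD and 73.5, 75.3 and 62.96 CPM in KOCKD + RNLS. In knockout mice the change with RNLS was -0.28 ± 0.12 (SE, n = 3 per group), with an unadjusted p of 0.0391 and an adjusted p of 0.135 by edgeR, and 1 KOCKD heart lay within the treated range. Cat was at 410, 304 and 294 CPM in WTSHAM, 299.7, 283 and 324 CPM in WTCKD and 279, 309 and 250.2 CPM in WTCKD + RNLS. It was at 359.6, 342 and 313 CPM in KOCKD and 314, 316 and 323 CPM in KOCKD + RNLS. The sham heart at 410 CPM was the highest of the 15, and without it the change with CKD went from -0.15 to 0.02.

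Sod1 and Gpx1 are the 2 shortest of the 10 genes, with lengths of 637 and 941 bases as implied by counts and FPKM. In KOCKD + RNLS against KOCKD the change of all genes went with their length, with a median of -0.24 over the 3155 shortest genes (206 to 2249 bases) and 0.25 over the 3151 longest (5887 bases and over). With offsets that remove this trend the medians were -0.01 and 0.002. The same offsets moved Sod1 in this comparison from -0.21 to 0.18 and Gpx1 from -0.28 to 0.03, and both differences of the RNLS effect turned positive, at 0.05 for Sod1 and 0.10 for Gpx1. The change of Sod2, at 3824 bases, went from -0.12 to -0.14 and that of Gclc, at 3507 bases, stayed at 0.24. The direction for Sod1 and Gpx1 in knockout mice therefore turned with the length offsets. Whether the length trend is technical was not tested.

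**Figure D4:**
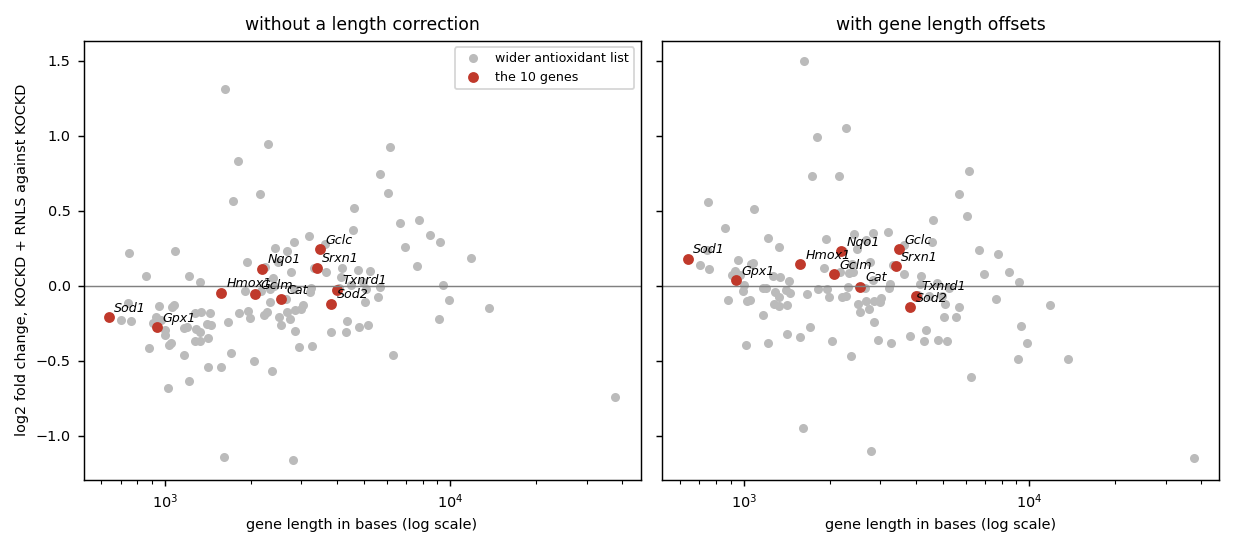
Log2 fold change in KOCKD + RNLS against KOCKD (vertical axis) against gene length in bases (horizontal axis, log scale) for the 10 genes (red) and the tested genes of the wider antioxidant list (grey), without (left) and with (right) gene length offsets. Sod1 and Gpx1, at the short end, go from -0.21 and -0.28 to 0.18 and 0.03.

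The regulators of the pathway were read from the same fit. Nfe2l2 itself had group means of 85.3 (WTSHAM), 87.2 (WTCKD), 101 (WTCKD + RNLS), 78.3 (KOCKD) and 87.4 CPM (KOCKD + RNLS), and Keap1 of 71.9, 67.7, 78.0, 73.5 and 73.6 CPM in the same order. Neither was called in any comparison, with adjusted p of 0.149 and 0.225 across the 5 groups. Bach1, the repressor at AREs, rose in KOCKD + RNLS against KOCKD by 0.42 on the log2 scale (SE 0.12, adjusted p = 0.0252), from 30.6, 29.6 and 38.5 CPM to 44.6, 43.8 and 43.7 CPM. With gene length offsets the change was 0.24 (adjusted p = 0.208), and 5 of 6 fits without a single heart lost the call, leaving it only without replicate 3 of KOCKD.

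Other antioxidant genes were taken from a list of 124 genes in 6 groups, of which 120 were tested, and 3, 4, 21, 0 and 0 of them were called in the 5 comparisons. That is 2.5% of the tested list beside 2.3% of all genes with CKD, 3.33% beside 4.47% with RNLS in wild-type mice and 17.5% beside 16.1% in knockout mice. With CKD 3 genes rose and none fell. They were Txnip, the inhibitor of thioredoxin, by 0.99 on the log2 scale (adjusted p = 0.0258), Chac1, which degrades glutathione, by 0.93 (adjusted p = 0.0201), and Fth1, the ferritin heavy chain, by 0.33 (adjusted p = 0.0474). The call of Fth1, a gene with many processed copies, was lost in each of the 6 fits without a single heart, that of Txnip in 4 (WTSHAM replicate 1 or 3, WTCKD replicate 2 or 3) and that of Chac1 in 3 (WTSHAM replicate 2, WTCKD replicate 1 or 3). With RNLS in wild-type mice Gsta3, a glutathione transferase, rose by 0.99 (adjusted p = 0.00984). Txnip fell by 1.26 (adjusted p = 0.00518), Sod3, the extracellular superoxide dismutase, fell by 0.60 (adjusted p = 0.0142), and Selenop, the selenium carrier, fell by 0.37 (adjusted p = 0.0207). The call of Sod3 was lost in 3 of 6 fits without a single heart (WTCKD replicate 2, WTCKD + RNLS replicate 1 or 3), and that of Selenop in 4 (WTCKD replicate 1 or 2, WTCKD + RNLS replicate 1 or 3).

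In KOCKD + RNLS against KOCKD 8 genes of the list rose and 13 fell, beside 9.05% of all genes that rose and 7.04% that fell. By group these were 3 up and 0 down of 12 NRF2 regulators, 4 and 1 of 31 other NRF2 targets, 0 and 4 of 19 genes of the glutathione system, 0 and 6 of 23 of the thioredoxin and peroxiredoxin system, 1 and 2 of 17 of NADPH supply and none of 18 sources of reactive oxygen. The subgroups are small, these counts are without gene length offsets, and no direction of theirs was tested. Gsta3 rose by 1.31 (adjusted p = 0.00152) and Aox1, an aldehyde oxidase, by 0.74 (adjusted p = 0.0119). Txnip fell by 1.16 (adjusted p = 0.00389), Gpx3, the plasma glutathione peroxidase, by 1.14 (adjusted p = 0.0225), Gpx8 of the endoplasmic reticulum by 0.68 (adjusted p = 0.00303) and Gpx7 by 0.64 (adjusted p = 0.0466). With gene length offsets Gsta3, Txnip and Gpx8 kept their calls, while Aox1 (adjusted p = 0.0502), Gpx3 (0.0941) and Gpx7 (0.237) lost them. Without single hearts the call of Gpx7 was lost in each of 6 fits, that of Gpx3 in 4 (KOCKD replicate 3 or any treated heart) and that of Aox1 in 1 (KOCKD replicate 2). With the offsets 9 genes of the list were called in place of 21 of the 120 tested, beside 5.41% of all genes.

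Txnip and Gsta3 moved with RNLS in both genotypes and kept their calls there in every fit without a single heart. Txnip was at 415, 797 and 478 CPM in WTSHAM, 861, 1096 and 1390.2 CPM in WTCKD and 556, 407 and 429 CPM in WTCKD + RNLS. In knockout mice it was at 1205, 1004 and 1264 CPM in KOCKD and 455, 626 and 476 CPM in KOCKD + RNLS. The treated hearts lay close to the range of the sham hearts and below every untreated CKD heart. Over the same comparisons the clock genes, the sum of the cardiomyocyte markers and the endothelial markers also moved, as given above. Of the macrophage markers 11 of 12 were lower with RNLS in wild-type mice and 9 of 12 in knockout mice. All 6 tested atrial markers were lower in both genotypes. The 10 fibroblast markers were all lower in wild-type mice, but 6 were lower and 4 higher in knockout mice. The part of these shifts in the changes of Txnip and Gsta3 was not tested. Gsta3 was at 12.6, 8.9 and 7.1 CPM in WTSHAM, 9.1, 9.8 and 8.2 CPM in WTCKD and 20.03, 19.3 and 14.5 CPM in WTCKD + RNLS. It was at 7.0, 9.7 and 6.6 CPM in KOCKD and 20.1, 18.7 and 19.0 CPM in KOCKD + RNLS. Every treated heart lay above every untreated one, and close relatives of its family could share reads with it. Txnip and Gsta3 are named because they were called in these same comparisons. Of all genes, 21.2% did not overlap between WTCKD + RNLS and WTCKD, and 40.6% between KOCKD + RNLS and KOCKD. Nqo1, Gclc and Gclm showed no such separation of treated from untreated hearts. Nnt, the mitochondrial transhydrogenase that makes NADPH and carries a loss-of-function deletion in the C57BL/6J strain, had group means of 638, 747, 797, 792 and 961 CPM from WTSHAM to KOCKD + RNLS. It differed among the 5 groups (adjusted p = 0.0106) but was called in no comparison of 2 groups, with 0.28 in KOCKD + RNLS against KOCKD (adjusted p = 0.0778). Counts per gene do not show whether the deleted part of Nnt was present in these hearts.

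**Figure D5:**
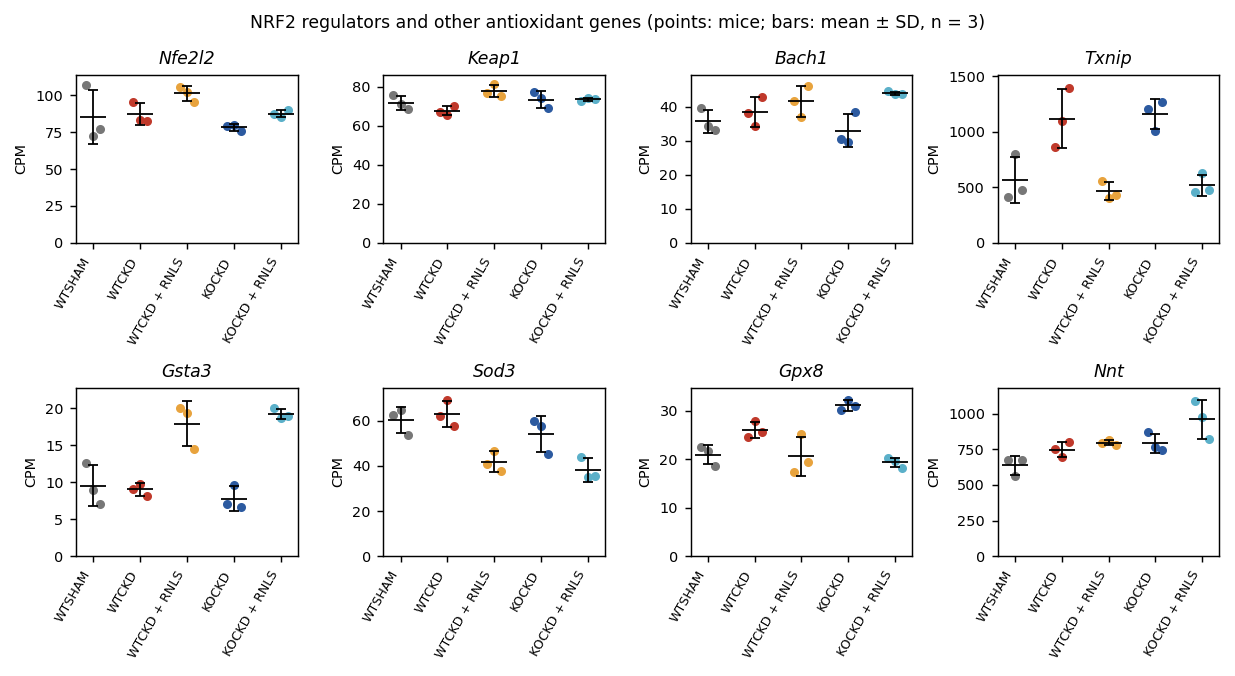
Level in CPM (vertical axis, from 0) of the NRF2 regulators Nfe2l2, Keap1 and Bach1 and of Txnip, Gsta3, Sod3, Gpx8 and Nnt in the 5 groups, 1 point per mouse with the mean and SD of 3 mice. Txnip is at 861 CPM or more in every untreated CKD heart and at 626 CPM or less in every treated heart, and Gsta3 is at 14.5 CPM or more in treated and 12.6 CPM or less in untreated hearts. With RNLS, 21.2% of all genes did not overlap in wild-type CKD mice and 40.6% in knockout CKD mice.

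On the mm9 build that the methods name, the annotation GENCODE M1 places the genes at chr8:109912125-109927106 (Nqo1), chr8:77617490-77624495 (Hmox1), chr9:77602342-77642292 (Gclc), chr3:121948475-121972902 (Gclm), chr10:82296696-82360469 (Txnrd1), chr2:151931252-151937112 (Srxn1), chr16:90220987-90226567 (Sod1), chr17:13200705-13210985 (Sod2), chr2:103294006-103325317 (Cat) and chr9:108241607-108242671 (Gpx1). The submitters' processing notes name GRCm39 instead, and the counts are given by gene symbol, so no value here rests on these positions.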

How the data were processed

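RNA was sequenced from 15 hearts after a stranded mRNA library preparation. The authors trimmed reads with Trimmomatic, aligned them with HISAT2, counted them per gene with HTSeq and computed FPKM with Cufflinks. Versions are not given in the sources used here. The deposited table holds raw counts, which were tested, and FPKM, used for levels between genes and for gene lengths. The study tested with DESeq. Here edgeR 4.0.16 (R 4.3.3, limma 3.58.1) was fitted to 15 libraries with group as the only term, TMM factors (0.925 to 1.05) and filterByExpr (minimum count 10, total 15), and p-values were adjusted over 13021 genes. The tests were tested on counts simulated with 1 common spread for all genes, for WTCKD + RNLS against WTCKD. There edgeR recovered 16 of 100 genes changed by 0.5 on the log2 scale and 93 of 100 changed by 1. The largest of the 50 changes of the 10 genes was 0.378, for Sod1 in the difference of the RNLS effect, which was not simulated. In the 4 comparisons of 2 groups it was 0.328, for Hmox1 with CKD. A missing call therefore does not show that changes of these sizes are absent. Replicates are separately labelled samples, and p-values measure only the spread between them. No 2 libraries of the same group agreed within sampling noise (chi-square per degree of freedom 4.32 to 19.7). The correlation measure was Pearson's r of log2 CPM (prior count 2) among genes over an average log2 CPM of 1. The alternatives were DESeq2 1.42.0, RLE factors, no filter, gene length offsets, a replicate block, only the libraries compared, the rule of the study and leaving out single hearts. Members and lists were chosen with earlier results of these data known. All 10 members are named. Of the other antioxidant genes, those called were named up to the 6 largest changes per comparison, plus Nfe2l2, Keap1, Bach1 and Nnt. For each member the 2 most correlated genes were named, except for Cat, whose result is not reported here.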

Additional observations from a re-analysis of the deposited data

How the results depend on the processing

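Over 660 refits of the 50 fold changes of the 10 genes, none brought a call, 607 kept the direction and 53, over 25 of the 50, reversed it. Gene length offsets reversed Gpx1 in WTCKD against WTSHAM (-0.00682), Hmox1 (0.144), Gclm (0.0755), Sod1 (0.18) and Gpx1 (0.0348) in KOCKD + RNLS against KOCKD, Nqo1 (-0.0507), Sod1 (-0.0512), Sod2 (0.0076) and Gpx1 (-0.155) in KOCKD against WTCKD, and Sod1 (0.052) and Gpx1 (0.0987) in the difference of the RNLS effect. The cause was not tested. Leaving out single hearts reversed these, given as the lowest and highest log2 fold change. In WTCKD against WTSHAM they were Cat (-0.24 to 0.0171), Gclm (-0.0714 to 0.253) and Sod1 (-0.0805 to 0.0543). In WTCKD + RNLS against WTCKD they were Gclc (-0.152 to 0.0122), Gpx1 (-0.184 to 0.043) and Srxn1 (-0.00625 to 0.148). In KOCKD + RNLS against KOCKD they were Gclm (-0.238 to 0.0687), Hmox1 (-0.258 to 0.133) and Txnrd1 (-0.117 to 0.0433). In KOCKD against WTCKD they were Gclc (-0.158 to 0.0826), Gpx1 (-0.0646 to 0.0981), Hmox1 (-0.279 to 0.107), Nqo1 (-0.071 to 0.115), Sod2 (-0.0531 to 0.0208) and Srxn1 (-0.031 to 0.0973). In the difference of the RNLS effect they were Cat (-0.0504 to 0.118), Hmox1 (-0.0596 to 0.322), Srxn1 (-0.029 to 0.126) and Txnrd1 (-0.0134 to 0.155).

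The rule of the study called 1 of the 10 genes in the difference of the RNLS effect, beside 15.2% of all genes. Across the 5 groups 1 was counted at an unadjusted p and DESeq2 also called 1, beside 39.7% and 30.2% of all genes. Leaving out single hearts gave 0 to 1 across the 5 groups by edgeR, beside 13.2% to 28.2% of all genes. Of the wider list, 3 called genes with CKD became 18 by the rule of the study, 10 by DESeq2, 0 with only the libraries compared and 0 to 5 without single hearts, where the share of all genes went from 2.3% to 11.3%, 4.36%, 0.777% and 1.03% to 2.88%. The 4 called with RNLS in wild-type mice became 20, 7 with gene length offsets, 8 by DESeq2 and 2 to 10 without single hearts, and the share of all genes from 4.47% to 14.4%, 5.65%, 6.86% and 1.59% to 5.77%. The 21 called in knockout mice became 9 with gene length offsets, 37 with only the libraries compared and 6 to 13 without single hearts, and the share of all genes from 16.1% to 5.41%, 25% and 6.53% to 11.2%. For KOCKD against WTCKD the rule of the study gave 7 in place of 0, and for the difference of the RNLS effect it gave 17 and DESeq2 gave 4 in place of 0. The shares of all genes in the same order were 5.62%, 15.2% and 2.76%, in place of 0%. RLE factors moved none of the 50 group levels by more than 1 SD.

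Mice of different groups share replicate numbers but nothing says that they were paired. Deviations of same-numbered hearts correlated between -0.36 and 0.334 over 30 pairs, with 5 pairs above 0.1, and 4 of 15 hearts correlated best with their own number. With the replicate number as a block 0 of the 10 genes were called in each comparison, and 2, 5, 21, 0 and 0 of the wider list. The shares of all genes called with this block were 1.94%, 4.01%, 14.7%, 0.00768% and 0%.

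With 3 mice per group an exact permutation test of a single gene cannot go below p = 0.1.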
